A study of Mus musculus with 14 samples.

Results

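Mouse liver 8 h after part of it had been cut away (partial hepatectomy, PHx) was compared with normal liver. The members are the 2 arrays that the labels title as PHx 8 h and the 2 titled as normal mouse liver, 4 of the 14 arrays of the series. The other 10 hold liver at 4, 12, 36, 48 and 72 h, and the 4 and 12 h arrays are used here as the neighbouring times. Total RNA labelled with biotin was measured on 1-colour arrays, and each RNA extraction drew on livers pooled from 4 to 6 mice. Strain, sex, age, the extent of the resection and any sham operation are not given in the sources used here, so the operation itself and the loss of liver tissue cannot be told apart. Whether both arrays of a group drew on separate pools is not said in the labels. P-values therefore measure only how far the arrays of the series spread within their groups, and that spread may be technical.

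After hepatectomy the hepatocytes that remain leave their resting state and later divide. In the first hours they are primed by cytokines: interleukin 6 acts through the receptor subunit gp130 and the transcription factor STAT3, and tumour necrosis factor and interleukin 1 act through NF-kB. The same cytokines drive the acute-phase response, in which the liver changes the plasma proteins it secretes. The remnant meanwhile keeps glucose, bile and fat metabolism going and stores fat in droplets, while growth hormone, glucocorticoids and fasting act on it too.

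The table holds 22690 probe sets, the groups of oligonucleotides that each report 1 transcript. Values are intensities on a linear scale that had been set to a common mean on all arrays, and 13576 probe sets (8453 genes) reached the brightness needed for a test. Changes are differences in log2(intensity + 56.6), 8 h minus normal liver, and are called at an adjusted p below 0.05. Each has its standard error (SE) from limma and a p-value adjusted over all tested probe sets. The fit covered all arrays of the series, so each SE also holds the spread within the groups at other times. The added 56.6 shrinks the changes of dim transcripts. Where a transcript was not above the background of the bacterial control probe sets on any array of the dimmer group, the fold is a lower bound ("at least"). The 2 normal liver arrays correlated at 0.952 across probe sets and the 2 arrays at 8 h at 0.963, which are correlations over genes and not over replicates. Replicate 2 at 8 h belongs to 4 arrays on which pyruvate carboxylase, a labelling control, gave a 5′ to 3′ signal ratio of 0.0909 to 0.137; the remaining 10 had 0.305 to 0.584. Replicate 2 at 12, 36 and 72 h are the others. Values "with the block" have this split as a term in the fit, and values "without the 4 arrays" leave 1 array at 8 h.

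At 8 h 661 probe sets were higher and 641 lower than in normal liver (9.59% of those tested, with 4.87% higher and 4.72% lower), and 543 of the rises and 490 of the falls were at least 2-fold. Counted by the brightest probe set of each gene, 423 genes were higher (5.0%) and 441 lower (5.22%), and these shares (10.2% in both directions) are the background for every list below. The median change of all tested genes was 0.09. With the block 1197 probe sets passed, and without the 4 arrays 362. Leaving out a single array gave 532 and 453 for replicates 1 and 2 at 8 h, 458 for normal liver replicate 2 and 1670 for normal liver replicate 1. Counts given below on leaving out 1 array are those without normal liver replicate 2, without 8 h replicate 1 and without 8 h replicate 2, in this order. Of the 214 called probe sets of named genes, 190 kept the call with the block and 113 without the 4 arrays.

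The largest rises outside pancreas and muscle transcripts included secreted defence proteins and cytokine receptors. Lcn2, lipocalin 2, which binds the iron carriers of bacteria, was at 352 and 257 in normal liver and 30991 and 26699 at 8 h (6.33, SE 0.49, adjusted p = 1.99e-05). The serum amyloid proteins Saa1 and Saa2, lipoprotein-bound products of the acute phase, went from 1041 and 1066 to 40688 and 34605 (5.08, SE 0.29, adjusted p = 5.82e-06) and from 484 and 511 to 26873 and 20748 (5.42, SE 0.32, adjusted p = 5.82e-06). No array at 8 h overlapped with a normal liver array for these 3 genes. The rule for the largest changes requires this, and 55.1% of all tested probe sets did not overlap. Il1r1, the signalling receptor of interleukin 1, was at 293 and 258 in normal liver and 4654 and 4877 at 8 h (3.86, SE 0.24, adjusted p = 5.87e-06), a rise in which the arrays of each group lay close together. Tnfrsf12a, the receptor of the cytokine TWEAK, went from 47.4 and 108 to 3163 and 1672 (4.17, SE 0.72, adjusted p = 0.00403), with a wider spread. Cidec, which enlarges lipid droplets by fusion, was at 36.4 and 31 in normal liver and 2393 and 2125 at 8 h, at least 40.1-fold higher (adjusted p = 1.86e-05). The transcript 2010003K11Rik went from 372 and 268 to 5048 and 5003 (3.77, SE 0.24, adjusted p = 6.09e-06).

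The largest falls included metabolic genes of the adult liver, and several went to background. Hsd3b5, a steroid dehydrogenase typical of male mouse liver, was at 3053 and 4494 in normal liver and 15.2 and 10.9 at 8 h, at least 44.4-fold lower (adjusted p = 1.53e-05). Hsd3b2 of the same family went from 575 and 608 to 15.5 and 14.9, at least 7.08-fold lower (adjusted p = 0.000141). Both 8 h arrays lay below background for the pair. Keg1, which resembles glycine acyltransferases, fell from 6975 and 6039 to 413 and 419 (-3.79, SE 0.24, adjusted p = 6.09e-06). Coq8a, a mitochondrial atypical kinase needed to make coenzyme Q, was at 5113 and 7678 in normal liver and 469 and 714 at 8 h (-3.31, SE 0.34, adjusted p = 0.000155), while its relative Coq8b rose from 461 and 480 to 1719.5 and 1429 (1.62, SE 0.35, adjusted p = 0.013). The 2 relatives thus moved in opposite directions on the same arrays. Pde9a, a phosphodiesterase of cyclic GMP, was at least 5.96-fold lower, Rtp3, a receptor-transporting protein of liver, at least 6.68-fold and Ssbp3, a cofactor of LIM domain transcription factors, at least 6.33-fold. Pbld1, a phenazine biosynthesis-like protein, fell from 2206 and 1895 to 324 and 200.3 (-2.75, SE 0.31, adjusted p = 0.000292). Pnkd went from 2569 and 2881 to 297 and 202 (-3.20, SE 0.25, adjusted p = 1.86e-05), but its other probe set was at -0.76 (SE 0.32) and did not pass.

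**Figure D1:**
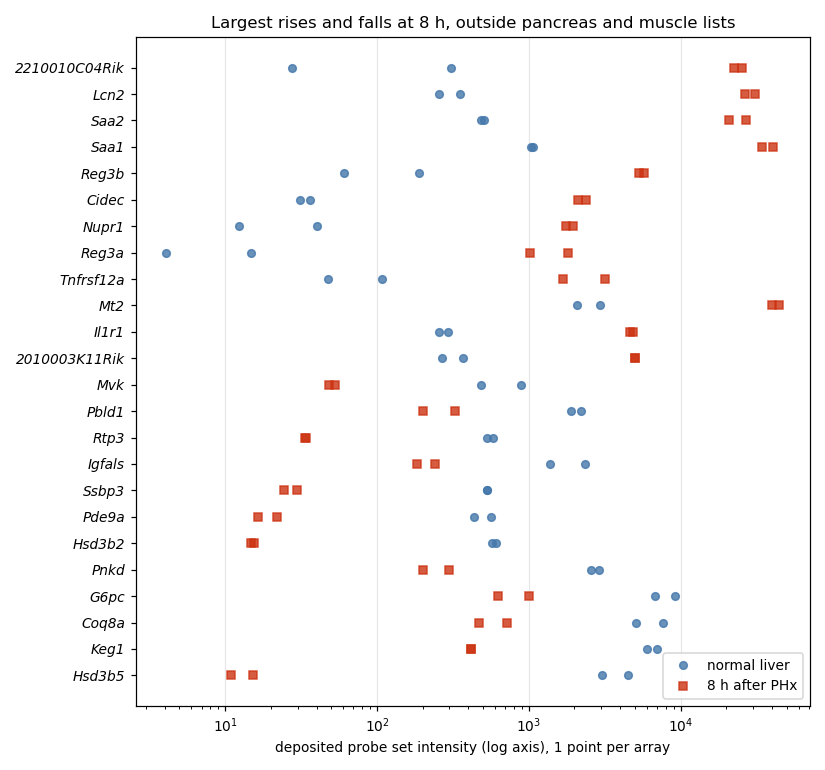
Deposited intensity (log axis) of the 12 largest rises and 12 largest falls at 8 h outside the pancreas and muscle lists, with circles for the 2 normal liver arrays and squares for the 2 arrays at 8 h. Genes were picked so that the arrays of the groups do not overlap. Saa1 lies at 34605 and 40688 at 8 h against 1041 and 1066 in normal liver. Hsd3b5 lies at 15.2 and 10.9 against 3053 and 4494.

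Transcripts of pancreas and muscle were present in both 8 h arrays. Of 30 acinar transcripts, the digestive enzymes and their partners from the exocrine pancreas, 26 rose (26 with the block and 25 without the 4 arrays), with a median change of 6.04 against 0.09 over all genes. All 30 were above background in both 8 h arrays, and none was at 0. Their median intensity was 119.5 and 42.8 in normal liver, 1068 and 889.8 at 4 h, 9781 and 8383 at 8 h and 208 and 92.95 at 12 h. Their summed intensity was 385400 and 362100 at 8 h against 7266 and 5841 in normal liver. They made up 2.09% and 2.04% of the summed signal at 8 h and 0.0414% and 0.0306% of it in normal liver. Cela3b, a pancreatic elastase, was at 25.6 and 13.9 in normal liver and 33905 and 27465 at 8 h, at least 543-fold higher (adjusted p = 0.00197). Cpa1, carboxypeptidase A1, went from 5.7 and 2.2 to 25169.5 and 22231, at least 421-fold higher (adjusted p = 0.00162). Ins2, insulin from the islets, was at 68.6 and 34.4 in normal liver and 680.2 and 570.3 at 8 h and at least 11.1-fold higher (adjusted p = 0.00221). It was 1 of 2 islet markers bright enough for a test, and the other, Ttr, was at -0.35 and did not pass. The 13 islet markers on the array had a median intensity of 57.0 and 104.9 at 8 h against 78.0 and 14.7 in normal liver. Replicate 2 at 36 h held acinar transcripts as well, with a median of 1027 against 50.0 in replicate 1.

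Of 22 skeletal muscle transcripts 14 rose at 8 h (11 without the 4 arrays), with a median change of 1.68. The 26 on the array had a median intensity of 505 and 492.5 at 8 h, 627 and 710.5 at 4 h, and 76.35 and 37.8 in normal liver. Their sum was 39260 and 38180 at 8 h and 33490 and 34610 in normal liver, where most of it came from Car3, which hepatocytes also make, and none of the 22 tested was at 0. Acta1, skeletal alpha-actin, was at 26.4 and 7 in normal liver and 3465 and 3461 at 8 h (at least 61.6-fold higher, adjusted p = 0.00054), and Ckm, muscle creatine kinase, went from 139 and 60.4 to 1737 and 1698 (3.55, SE 0.36, adjusted p = 0.000141). Among normal liver, 4, 8 and 12 h, the list medians were highest at 8 h for acinar and at 4 h for muscle transcripts. Of 77 tested probe sets of the pancreas and muscle lists, 57 are among the 661 rises, and without them 1245 probe sets passed. Which of the other changes share a source with these transcripts was not tested. The 9 hepatocyte markers had a median change of -0.28, and by limma 0 passed (1 at an unadjusted p under 0.05). Alb, albumin, was at 46243 and 64350.4 in normal liver and 45884 and 42431 at 8 h (-0.31, SE 0.29, adjusted p = 0.542) and Apoa1, the main protein of high-density lipoprotein, at 57614 and 63318 in normal liver and 53432 and 54960.1 at 8 h (-0.16, SE 0.23, adjusted p = 0.702). In these bulk samples a change in the share of a cell type and a change of RNA per cell cannot be told apart.

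**Figure D2:**
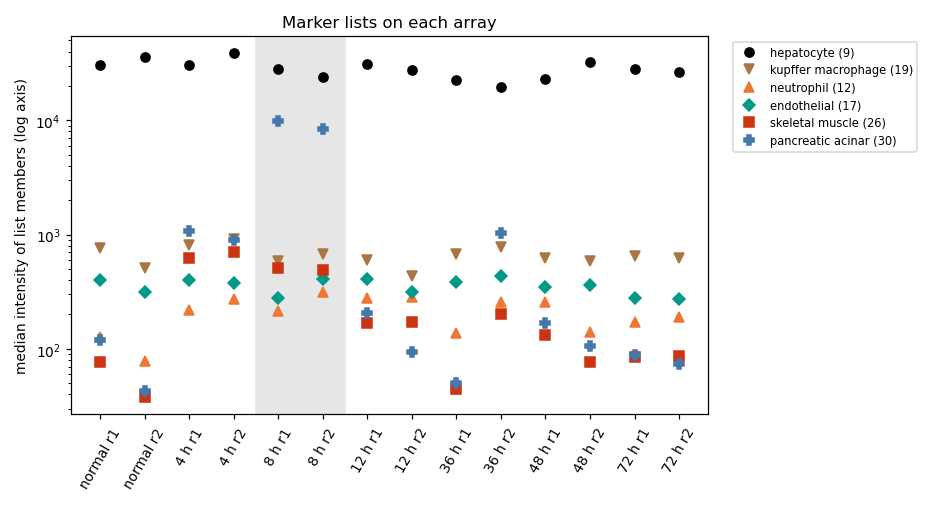
Median intensity (log axis) of 6 marker lists on each of the 14 arrays, with the number of members in brackets and the 8 h arrays shaded; r1 and r2 are the replicates. Acinar transcripts lie at 9781 and 8383 at 8 h and 1027 in replicate 2 at 36 h, while hepatocyte markers lie between 19770 and 38540 on all arrays.

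Reg3b, Reg3a and Reg3d, small secreted lectins of gut and pancreas, were among the largest rises and moved like the acinar transcripts. Reg3b was at 188 and 60.4 in normal liver, 331 and 445 at 4 h, 5782 and 5312 at 8 h and 248 and 150 at 12 h (5.05, SE 0.85, adjusted p = 0.00342 for 8 h against normal liver), and at 36 h it was at 97.5 and 2024, high in the replicate that held acinar transcripts. Reg3a was at least 24.1-fold higher at 8 h than in normal liver (adjusted p = 0.00317), and Reg3d rose by 3.43 (SE 0.46, adjusted p = 0.000821). Nupr1, a stress-induced chromatin protein that is also abundant in injured pancreas, was at 12.4 and 40.1 in normal liver and 1758 and 1952 at 8 h, at least 32.9-fold higher (adjusted p = 8.68e-05), with 60.6 and 109 at 12 h and 54.4 and 220.4 at 36 h. The transcript 2210010C04Rik went from 308 and 27.6 to 25416 and 22526 (7.10, SE 0.96, adjusted p = 0.000875) and was at 112 and 2669.5 at 36 h. These 5 were lower at 12 h than at 8 h and higher in replicate 2 than in replicate 1 at 36 h, as the acinar markers were, and the part of pancreas RNA in their rise was not tested.

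The acute-phase list had 12 of 27 tested members higher at 8 h (44.4% in the list, against 5.0% of all genes), with a median change of 0.42; 10 passed with the block, 8 without the 4 arrays, and 8, 8 and 7 on leaving out 1 array. Besides Lcn2, Saa1 and Saa2, Steap4, a metalloreductase induced by inflammation, went from 860.2 and 1869.7 to 14342 and 14114 (3.43, SE 0.36, adjusted p = 0.000212). Serpina3n, a serine protease inhibitor of plasma, was at 3109.9 and 4107 in normal liver and 26562 and 21345 at 8 h (2.72, SE 0.39, adjusted p = 0.00136). Orm2, an orosomucoid, which binds drugs and lipids in plasma, went from 186 and 151 to 1139 and 1215 (2.46, SE 0.35, adjusted p = 0.00136). Apcs, the pentraxin serum amyloid P, rose by 2.35, Saa3 by 1.99 and Lrg1, a leucine-rich glycoprotein, by 1.51. The other 15 members did not pass, and changes in the list ran from -0.67 to 6.33.

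Promoter stretches of 5 genes are shown in this section because they hold letters bound by a factor known to act on the genes of their list; the capitals mark the match, on either strand. They come from the RefSeq promoter table of assembly GRCm38.p6 and end 30 to 100 bases before the start of the gene. STAT3 is known to bind TTCNNNGAA, which is present in the 250 bases before the start in 7.02% of all 32851 promoters of the table. Counted by gene, 8.13% of all 27025 genes held it in at least 1 promoter, as did 6 of 22 acute-phase genes (27.3%). The 2 STAT examples belong to Socs3 (chr11:117969467-117969566, minus strand) and Steap4 (chr5:7960312-7960411, plus strand).
Socs3: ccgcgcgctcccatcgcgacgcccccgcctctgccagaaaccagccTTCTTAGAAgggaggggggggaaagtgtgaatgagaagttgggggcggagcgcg
Steap4: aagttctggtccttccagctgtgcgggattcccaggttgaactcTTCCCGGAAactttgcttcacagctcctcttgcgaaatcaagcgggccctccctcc
Of the 6 acute-phase genes with a match 2 rose (median 0.50), Apcs and Steap4, and of the 15 tested without one 8 rose (median 1.02). A match describes letters in this window only.

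Some genes of the gp130 pathway rose, receptors and targets among them. Of 16 tested members 5 were higher (2 without the 4 arrays), with a median of 0.25. Osmr, the oncostatin M receptor subunit, was at 104 and 86.8 in normal liver and 404 and 432 at 8 h (1.65, SE 0.25, adjusted p = 0.00197), and Il6st, gp130 itself, at 1226 and 1221 in normal liver and 2178 and 2187 at 8 h (0.81, SE 0.21, adjusted p = 0.0305). Stat3 went from 1206 and 1636 to 2899 and 3781 (1.20, SE 0.31, adjusted p = 0.032). The calls of all 3 were lost without the 4 arrays, and 2 other probe sets each of Il6st and Stat3 did not pass. Socs3, the feedback inhibitor of this pathway whose promoter is shown above, went from 248 and 206 to 2531 and 2805 (3.27, SE 0.33, adjusted p = 0.000141), and its other probe sets were at 1.70 (adjusted p = 0.00892) and 1.25 (adjusted p = 0.0845). Bcl3, an atypical inhibitor protein of NF-kB that STAT3 induces, was at 369 and 325 in normal liver and 1734 and 1438 at 8 h (2.02, SE 0.26, adjusted p = 0.000677), against 519.6 and 553 at 4 h.

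In the list of interleukin 1, TNF receptor and NF-kB feedback genes 4 of 22 rose (median 0.61). Beside Il1r1 and Tnfrsf12a these were Cebpd, a transcription factor of the acute phase, at 227 and 168 in normal liver and 1122 and 1303 at 8 h (2.33, SE 0.26, adjusted p = 0.000321), and Nfkbib, an inhibitor of NF-kB, which rose by 1.25 (SE 0.23). Among 14 chemokine genes 2 rose and 1 fell. Cxcl1, which attracts neutrophils, went from 214 and 151 to 2755 and 3110.3 (3.66, SE 0.41, adjusted p = 0.000292), and Ccl6, a myeloid chemokine, from 230 and 266 to 1272 and 1093 (2.02, SE 0.39, adjusted p = 0.00728). Cxcl12, which retains leukocytes and stem cells, went from 2644 and 2929 to 1567 and 1297 (-0.94, SE 0.26, adjusted p = 0.0422) and lost the call with the block.

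Some neutrophil markers were higher at 8 h as well: 3 of 10 tested members passed (median 0.85), and the summed intensity of the 12 on the array was 34010 and 30200 against 1813 and 1232 in normal liver, most of it from Lcn2, which hepatocytes also make. S100a8, a calcium-binding protein of neutrophils, was at 9.2 and 61.5 in normal liver and 553 and 686 at 8 h (2.93, SE 0.42, adjusted p = 0.00124) and S100a9 at 39.1 and 117 in normal liver and 687 and 705 at 8 h (2.55, SE 0.56, adjusted p = 0.014). For both genes the normal liver arrays lay far apart, and no array at 8 h overlapped with them, as in 55.1% of all tested probe sets. Of 17 Kupffer cell and macrophage markers 2 fell and 1 rose. Csf1r, the receptor for the macrophage growth factor, fell from 2691 and 2893 to 1309 and 1346 (-1.04, SE 0.21, adjusted p = 0.00905) and Clec4f, a lectin of Kupffer cells, from 1723 and 1975 to 772 and 1009 (-1.02, SE 0.25, adjusted p = 0.0238). Cd14, the endotoxin coreceptor, which is also an acute-phase gene, rose by 2.04 (SE 0.54, adjusted p = 0.0331). None of the 3 passed without the 4 arrays, and Cd14 did not pass with the block. Of 27 interferon and antigen presentation genes 2 interferon-induced GTPases fell, Ifi47 by 1.04 and Igtp by 0.92 on the log2 scale (Igtp not with the block, and neither without the 4 arrays). By limma 0 of 15 endothelial, 0 of 5 lymphocyte and 0 of 4 erythroid markers passed, against 4, 1 and 2 at an unadjusted p under 0.05.

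Metal handling changed strongly in a few genes. Mt1 and Mt2, the metallothioneins, which bind zinc and copper, went from 4261 and 4756 to 53026 and 42727 (3.39, SE 0.26, adjusted p = 1.86e-05) and from 2952 and 2086 to 40139 and 44839 (4.06, SE 0.29, adjusted p = 1.36e-05). Slc39a14, a zinc and iron importer induced by interleukin 6, was at 1285 and 1388 in normal liver and 11788 and 10937 at 8 h (3.04, SE 0.30, adjusted p = 0.000141). Tfrc, the transferrin receptor, rose by 1.02 (SE 0.22), while Slc40a1, ferroportin, the iron exporter, fell from 3184 and 2505 to 728 and 571 (-2.04, SE 0.24, adjusted p = 0.000428). Both iron importers were thus higher and the exporter lower, and the other 11 of the 16 list members did not pass. The metal response core TGCNCNC is short and occurs in 44.4% of all promoters and 47.2% of all genes, and 7 of 13 list genes (53.8%) held it. Mt2 is shown because it held 5 copies in 220 bases (chr8:94172368-94172587, plus strand).
Mt2: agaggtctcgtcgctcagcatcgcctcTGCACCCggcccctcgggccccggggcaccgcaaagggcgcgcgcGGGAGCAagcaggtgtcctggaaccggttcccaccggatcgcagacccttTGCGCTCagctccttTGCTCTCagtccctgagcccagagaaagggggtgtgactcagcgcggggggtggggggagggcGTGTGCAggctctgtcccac
Of the 5 tested list genes with a copy 3 rose (Mt1, Mt2 and Tfrc), and the 5 tested without one lay between -0.70 and 0.36 (0 called by limma, 1 at an unadjusted p under 0.05). Slc39a14 and Slc40a1, both called, had no promoter sequence here and are in neither group, so the split does not cover the whole list.

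Stress genes rose in small numbers across several pathways. In the p53 and Gadd45 list 5 of 17 were higher (3 without the 4 arrays, median 0.30). Cdkn1a, the cell cycle inhibitor p21, was at 223 and 274 in normal liver and 2541 and 2067 at 8 h (2.95, SE 0.38, adjusted p = 0.000582), and Gadd45b, a MAP kinase regulator, at 18.9 and 10.7 in normal liver and 493 and 593 at 8 h, at least 9.61-fold higher (adjusted p = 0.0128), with 2 other probe sets that did not pass. Sesn2, a sestrin that restrains growth signals, rose by 1.09 and Phlda3, an inhibitor of AKT, by 0.80; both calls were lost without the 4 arrays, and that of Phlda3 also with the block. Nupr1, described above, is the last of the 5. Of 20 genes under the oxidative stress factor NRF2 3 rose: Srxn1, sulfiredoxin (724 and 782 to 3327 and 1963), Gstm3, a glutathione transferase (4782 and 5326 to 15082 and 13508), and Txnrd1, thioredoxin reductase (1622 and 1440.4 to 4161 and 3784). Their log2 changes were 1.69, 1.49 and 1.34.

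The endoplasmic reticulum list was split. Of 40 members 4 rose and 1 fell (10% and 2.5%, with a median of 0.10), against 5.0% and 5.22% of all genes, and without the 4 arrays 1 rose. Dnajb9, a chaperone cofactor of the reticulum, went from 1365 and 918 to 5713 and 4887 (2.18, SE 0.28, adjusted p = 0.000626). Xbp1, the transcription factor of the unfolded protein response, was at 5951 and 5753 in normal liver and 12155 and 13539 at 8 h (1.12, SE 0.21, adjusted p = 0.00527), Asns, asparagine synthetase, rose by 1.38 and Eif2ak3, the stress kinase PERK, by 1.10. Derl2, a channel component for protein disposal, fell by 1.43 on the log2 scale (SE 0.29). Acinar cells are rich in such transcripts. Dnajb9 was at 6446 and 4361 and Xbp1 at 15416 and 14611 at 12 h, where the acinar median was 208 and 92.95. In the 36 h arrays without and with acinar transcripts, Dnajb9 was at 2525 and 2482.5 and Xbp1 at 6135 and 7140.5. Asns was at 1343 and 1653 and Eif2ak3 at 424 and 489 in the same arrays. The part of pancreas RNA in these rises was not tested.
The ER stress element of the unfolded protein response, CCAAT and CCACG with a spacer of 9 bases between them, occurs in 0.113% of all promoters, in 0.13% of all genes and in 10 of 35 list genes (28.6%). The 2 main chaperones of the reticulum are shown because they held the element and did not pass: Hspa5, or BiP (chr2:34771980-34772059, plus strand, 1 copy), and Hsp90b1, or GRP94 (chr10:86705515-86705674, minus strand, 2 copies).
Hspa5: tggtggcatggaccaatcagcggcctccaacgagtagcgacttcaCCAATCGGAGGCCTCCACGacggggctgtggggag
Hsp90b1: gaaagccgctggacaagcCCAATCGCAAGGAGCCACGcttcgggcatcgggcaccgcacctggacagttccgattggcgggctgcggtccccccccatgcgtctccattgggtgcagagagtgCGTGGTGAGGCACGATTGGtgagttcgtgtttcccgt
Hspa5 was at 7625 and 14223 in normal liver and 13515 and 14921 at 8 h (0.44, SE 0.41, adjusted p = 0.523). Hsp90b1 was at 3237 and 2487 in normal liver and 3517 and 3069 at 8 h (0.21, SE 0.26, adjusted p = 0.646). By limma 0 of the 10 genes with the element passed (0 at an unadjusted p under 0.05), with changes from -0.82 to 0.75 (median -0.20), while 4 of the 25 tested without it rose and 1 fell (median 0.24).

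Among 30 cytosolic and mitochondrial chaperones 3 rose and 2 fell (1 and 0 without the 4 arrays). The small heat shock protein Hspb8 and its partner Bag3, which steer damaged proteins to autophagy, rose by 1.51 (SE 0.25) and 1.16 (SE 0.27). Hspa4, an exchange factor of Hsp70, rose by 0.96, whereas its relative Hspa4l fell by 0.94 on the log2 scale. Another probe set of each did not pass, at -0.004 for Hspa4 (adjusted p = 0.994) and -0.36 for Hspa4l (adjusted p = 0.524). Fkbp4, a partner of the glucocorticoid receptor, went from 1126 and 1975 to 561 and 279 (-1.77, SE 0.40, adjusted p = 0.0178). By limma 0 of 37 proteasome subunits passed (4 at an unadjusted p under 0.05), and their median was 0.01.

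Many genes that build ribosomes rose. Of 40 tested ribosome biogenesis genes 19 were higher (47.5% in the list) and all 40 changes were above 0, with a median of 0.86 against 0.09 over all genes. Nop58 and Nop56, core proteins of the particles that modify ribosomal RNA, went from 159 and 113 to 743 and 820.4 (2.13, SE 0.30, adjusted p = 0.0012) and from 121 and 313 to 779.7 and 771 (1.70, SE 0.32, adjusted p = 0.00667). Another probe set of Nop56 was at 1.18 and did not pass. Gnl3, nucleostemin, was at 518 and 507 in normal liver and 1507 and 2022 at 8 h (1.66, SE 0.22, adjusted p = 0.000875). Nolc1 and Mybbp1a, further nucleolar proteins, each rose by 1.38, but other probe sets of them, at 0.68 and 0.80, did not pass. Nop2, also nucleolar, rose by 1.39. With the block 18 passed, but without the 4 arrays 2 did, with a median change of 0.94, and 9, 6 and 4 did on leaving out 1 array. By limma 0 of 24 ribosomal proteins of the cytosol passed (1 at an unadjusted p under 0.05); Rps2 was at 14902 and 20113 in normal liver and 18641 and 17731 at 8 h (0.07, SE 0.23, adjusted p = 0.878). Of 33 translation factors and tRNA synthetases 5 rose (4 with the block, 0 without the 4 arrays, and 2, 1 and 2 on leaving out 1 array), led by Eif6, which joins ribosome assembly to initiation (1.32, SE 0.27). Of 12 Myc network and polyamine genes 3 rose (1 without normal liver replicate 1 and 0 without any other single array of the comparison). These were Srm, spermidine synthase, by 1.40, Odc1, ornithine decarboxylase, by 0.98 (0.25, adjusted p = 0.706, at another of its probe sets), and Sat1, which starts polyamine breakdown, at 1436 and 1322 in normal liver and 3675 and 2838 at 8 h (1.20, SE 0.35, adjusted p = 0.05, and not called with the block). Of 24 splicing and nuclear RNA genes 3 rose (1 without the 4 arrays), with Srsf3, a splicing factor, at 405 and 507 in normal liver and 1898 and 1717 at 8 h (1.87, SE 0.30, adjusted p = 0.00241).

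Cell cycle genes gave few calls at 8 h, and without the 4 arrays no gene of the mitosis and BCL2 lists passed and 1 of DNA replication did. Of 26 immediate-early genes 6 rose and 1 fell (4 and 1 with the block, 1 and 1 without the 4 arrays; 2 rose on leaving out any of the same 3 single arrays). Ier3 was at 114 and 119 in normal liver and 582 and 459 at 8 h (1.73, SE 0.23, adjusted p = 0.00076) and Junb, an AP-1 subunit, at 415 and 271 in normal liver and 1143 and 863 at 8 h (1.42, SE 0.37, adjusted p = 0.0326, and not called with the block), below its 2098 and 1748 at 4 h. Dusp1, a phosphatase that ends MAP kinase signalling, fell from 3784 and 4139 to 756 and 582 (-2.48, SE 0.51, adjusted p = 0.0102). Fos was at 616 and 626 in normal liver and 316 and 243 at 8 h (-1.02, SE 0.46, adjusted p = 0.184), Jun at 682 and 451 in normal liver and 937 and 742 at 8 h (0.54, SE 0.31, adjusted p = 0.294) and Myc at 556 and 574 in normal liver and 319.7 and 487 at 8 h (-0.46, SE 0.39, adjusted p = 0.491), and none of the 3 passed. Ccnd1, cyclin D1, was at 855 and 735 in normal liver and 1618 and 1852 at 8 h (1.07, SE 0.45, adjusted p = 0.159), while a dimmer probe set of it rose by 1.21 (adjusted p = 0.0366) and another was at 1.56 (adjusted p = 0.0518). Of 21 DNA replication genes Mcm10 and Tk1 fell, by 1.54 and 1.33 on the log2 scale. Of 27 mitosis genes Cks1b, a subunit of cyclin-dependent kinases, rose from 376 and 455 to 1179 and 1388 (1.51, SE 0.26, adjusted p = 0.00392), and Cenpa and Cdk1 were below background at 8 h, at least 1.90-fold and 1.14-fold lower (Cdk1 not called with the block). Rbl2, the pocket protein p130 of resting cells, went from 434 and 418 to 192 and 171 (-1.02, SE 0.21, adjusted p = 0.00996). Of 12 BCL2 family genes Bad and Bok, which promote cell death, fell by 1.41 and 1.07 on the log2 scale (Bok not with the block). Hgf, hepatocyte growth factor, was at 135 and 141 in normal liver and 233 and 210.4 at 8 h (0.51, SE 0.21, adjusted p = 0.158).

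Among activin and TGF-beta genes 2 of 24 rose and 1 fell (1 and 0 without the 4 arrays). Inhbe, activin beta E, a hepatokine, went from 239.6 and 202 to 1535 and 1461 (2.49, SE 0.50, adjusted p = 0.0086), while Inhbc, activin beta C, went from 1058 and 1823 to 502 and 449.6 (-1.44, SE 0.26, adjusted p = 0.00521). The beta chains, both made by hepatocytes, moved in opposite directions. Skil, an inhibitor of SMAD signalling, rose by 1.34 (SE 0.37, and not called with the block). Klb, the coreceptor for FGF15 and FGF21, fell from 815 and 569 to 274 and 289 (-1.13, SE 0.22, adjusted p = 0.00792).

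Genes of the growth hormone and IGF axis fell at several levels of it: 9 of 31 tested genes were lower (29.0%, against 5.22% of all genes; 8 with the block, 7 without the 4 arrays, and 5, 5 and 7 on leaving out 1 array), with a median of -0.72. Ghr, the receptor, fell by 1.07 on the log2 scale and Stat5b, its transcription factor, by 1.29. Igfals, which holds insulin-like growth factors in plasma, went from 1381 and 2341 to 240.4 and 184 (-2.79, SE 0.34, adjusted p = 0.000433). Irs1, an adaptor of the insulin and IGF receptors, was at 839.6 and 1027 in normal liver and 219 and 361 at 8 h (-1.54, SE 0.30, adjusted p = 0.00831). Nudt7, a peroxisomal diphosphatase of coenzyme A, fell from 12271 and 14433 to 5315 and 5375 (-1.31, SE 0.22, adjusted p = 0.00323). The targets Hsd3b5, Hsd3b2 and Keg1 are described above. Igfbp1, an IGF-binding protein that rises in fasting, was at 8926 and 8583 in normal liver and 17201 and 17158 at 8 h (0.97, SE 0.48, adjusted p = 0.229), below its 31306 and 38965 at 4 h.

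Glucocorticoid and fasting genes were mixed, with 8 of 26 higher and 3 lower (5 and 3 without the 4 arrays, median 0.44). Pdk4, a kinase that holds back glucose oxidation, was at 135 and 120.4 in normal liver and 1849 and 1513 at 8 h (3.23, SE 0.57, adjusted p = 0.00451). Sult1e1, estrogen sulfotransferase, was at 19.4 and 6 in normal liver and 324 and 400.2 at 8 h, at least 6.40-fold higher (adjusted p = 0.00626). Per1, a clock gene under glucocorticoid control, went from 38 and 126 to 347 and 538 (1.90, SE 0.51, adjusted p = 0.0367, and not called with the block). Other targets of the same hormone went the other way: Tsc22d3, known as GILZ, went from 779.6 and 1246 to 192 and 390 (-1.65, SE 0.39, adjusted p = 0.0198) and Klf15 from 1839 and 2558 to 629 and 495 (-1.86, SE 0.25, adjusted p = 0.00083). Of the clock genes, Cry2 went from 124 and 257 to 44.9 and 29.3, at least 2.14-fold lower and at background. Clock fell by 1.13 on the log2 scale, but another probe set of it, at -0.39, did not pass. The labels do not give the hour of day at which the livers were taken, and its part in these changes was not tested. The clock letters CACGTG occur in 6.02% of all promoters, in 6.86% of all genes and in 5 of 20 clock genes, of which Per1 was the tested one that rose. Alas1, the first enzyme of heme synthesis, rose from 3859.7 and 4130 to 20186 and 19226 (2.29, SE 0.31, adjusted p = 0.000899).

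Transcription factors of hepatocyte identity gave 3 falls and 1 rise among 20. Cebpa, which maintains the differentiated hepatocyte, fell from 7398 and 9734 to 2470 and 2219 (-1.83, SE 0.40, adjusted p = 0.0144), while its relative Cebpd rose, as given above. Hhex, a homeobox factor of liver, was at 3147 and 2967 in normal liver and 733 and 1105 at 8 h (-1.70, SE 0.24, adjusted p = 0.00109), above its 557 and 549 at 4 h. Of 23 nuclear receptors 4 fell (2 without the 4 arrays). Nr1i3, the xenobiotic receptor CAR, was at 1824 and 1423 in normal liver and 424 and 399.9 at 8 h (-1.83, SE 0.33, adjusted p = 0.00521), and Nr0b2, the corepressor SHP, at 1704 and 1788 in normal liver and 472 and 313 at 8 h (-2.03, SE 0.34, adjusted p = 0.00321). Nr2f6, an orphan receptor, fell by 1.47 and Thra, a thyroid hormone receptor, by 0.97 on the log2 scale.

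Cholesterol synthesis genes fell at early and late steps of the pathway. Of 22 tested genes 10 fell (45.5%, against 5.22% of all genes) and 1 rose, with a median of -0.63; 9 fell with the block, 4 without the 4 arrays, and 5, 5 and 6 on leaving out 1 array. Hmgcs1, the synthase at the start of the pathway, went from 10629 and 11659 to 4624 and 6052 (-1.07, SE 0.26, adjusted p = 0.0237). Mvk, mevalonate kinase, was at 485 and 882 in normal liver and 53.2 and 48.6 at 8 h, at least 7.83-fold lower (adjusted p = 0.00035). Fdft1, squalene synthase, fell from 2240.1 and 2035 to 478 and 639 (-1.85, SE 0.23, adjusted p = 0.000521), and the sterol enzymes Lss, Msmo1 and Sc5d lay at -1.52, -1.89 and -1.65 on the log2 scale. Scap, which escorts the sterol factor SREBP, fell by 1.24, and Insig2, which retains Scap, rose by 1.01. Stard4, a cholesterol carrier, fell by 1.31. The sterol response letters TCACNCCAC stand in 1.05% of all promoters and, of 21 list genes with a promoter, in Hmgcs1 alone.

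Fatty acid synthesis and its regulators had 9 of 26 genes lower (34.6%), with a median of -0.88; 11 fell with the block, 5 without the 4 arrays, and 5, 5 and 6 on leaving out 1 array. Srebf1, the insulin-driven transcription factor, went from 4117 and 4429 to 912 and 1016 (-2.09, SE 0.31, adjusted p = 0.00151), and Mlxipl, the glucose sensor ChREBP, from 4837 and 6195 to 1338 and 1253 (-2.03, SE 0.33, adjusted p = 0.00268). Mid1ip1, an activator of acetyl-CoA carboxylase, was at 2772 and 2469.9 in normal liver and 430.3 and 407 at 8 h (-2.49, SE 0.21, adjusted p = 3.93e-05). Angptl8, a secreted inhibitor of lipoprotein lipase, fell by 2.23, Dgat2, which makes triglyceride, by 1.43 and Fasn, fatty acid synthase, by 1.07 on the log2 scale. Scd1, stearoyl-CoA desaturase, lay near 0 in the plot of lipid genes and did not pass.

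Lipid droplet proteins moved the other way, with 6 of 19 higher (4 without the 4 arrays, median 0.41). Plin2, the main droplet coat of liver, was at 11953 and 15635 in normal liver and 34302 and 30006 at 8 h (1.23, SE 0.28, adjusted p = 0.0178), and Plin5, which ties droplets to mitochondria, at 565 and 673 in normal liver and 1565 and 1841 at 8 h (1.38, SE 0.21, adjusted p = 0.00196). Lpin1, a phosphatidate phosphatase, rose by 1.72 and Pnpla2, the lipase ATGL, by 1.17. Fabp4, a fatty acid carrier of fat cells and macrophages, was at 262 and 275 in normal liver and 1693 and 1580.1 at 8 h (2.38, SE 0.29, adjusted p = 0.000433), and its other probe sets were at 2.28 and, for the dimmest, 0.03. The 9 adipose markers on the array, which include Cidec, Fabp4 and the hormone Retn, summed to 6603 and 6373 at 8 h against 3247 and 4050 in normal liver, with 7 above background. Most of the 8 h sum came from Cidec and Fabp4, which are in the droplet list too. Of the 6 adipose markers tested, 4 changes were above 0 (3 called) and 2 below. The part of fat tissue RNA in the droplet list was not tested. Cidec was at 3163 and 1152 at 12 h and at 79.6 and 57.9 at 48 h. The adipose markers, Cidec included, summed to 6402 and 4712 at 12 h and 3224 and 2894 at 48 h.

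Bile acid genes had 9 of 25 lower (36.0%), with a median of -0.81; 8 fell with the block, 2 without the 4 arrays, and 5, 6 and 4 on leaving out 1 array. Cyp7a1, which sets the pace of bile acid synthesis, went from 1104 and 1348 to 221 and 167 (-2.36, SE 0.30, adjusted p = 0.000579), and Cyp8b1, which makes cholic acid, from 4809.7 and 5272 to 1557 and 1263 (-1.80, SE 0.28, adjusted p = 0.00212). Their repressor Nr0b2 was lower too. Abcg5 and Abcg8, which form the sterol exporter of bile, fell by 1.11 and 1.09 on the log2 scale, and Abcb11, the bile salt pump, by 1.02. Among 19 apolipoprotein genes Apoa4, which is secreted when fat accumulates, rose from 1362 and 1319 to 20737 and 15737 (3.70, SE 0.32, adjusted p = 4.98e-05). Abca1, the cholesterol exporter to plasma, was at 2459 and 2078 in normal liver and 7079.6 and 6708 at 8 h (1.58, SE 0.20, adjusted p = 0.000492), and Scarb1, the receptor for high-density lipoprotein, fell by 1.13. Of 25 fatty acid oxidation genes Bdh1, a ketone body enzyme, fell by 1.12 and the others did not pass.

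**Figure D3:**
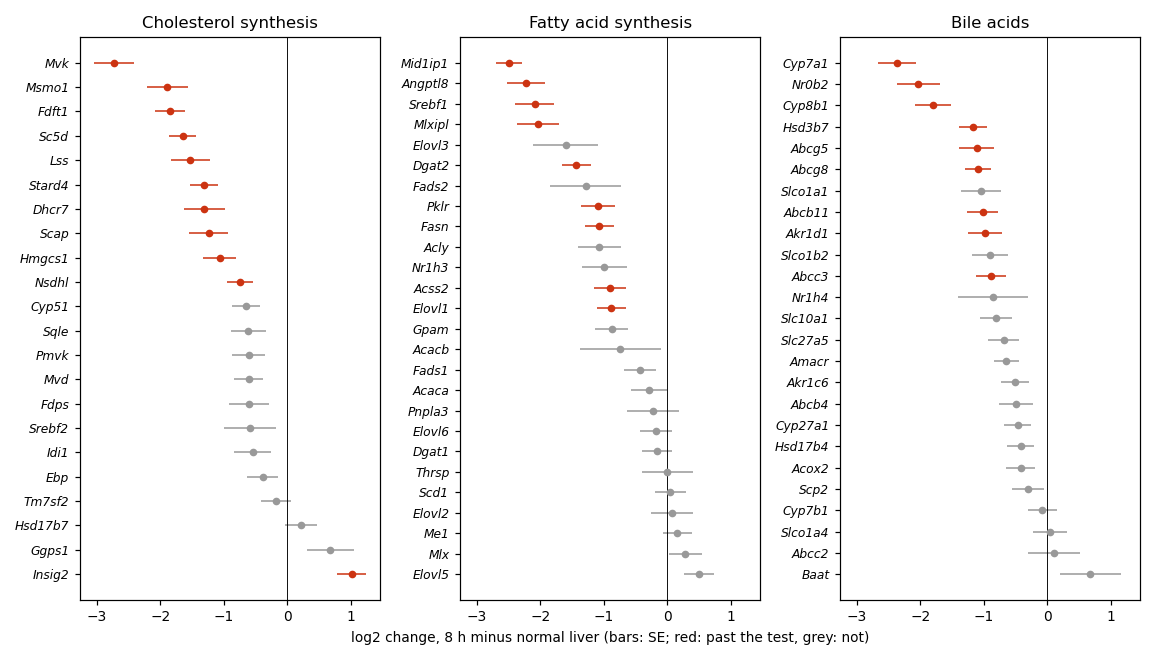
Log2 change at 8 h against normal liver, 2 against 2 arrays, for the tested genes of cholesterol synthesis, fatty acid synthesis and bile acids. Bars give the SE of the fit over all arrays of the series. Red marks genes past the test and grey those that did not pass. Points lie mostly left of 0, down to -2.73 for Mvk and -2.49 for Mid1ip1, and Insig2 at 1.01 is the red point on the right.

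Of 19 genes of glucose release, glycogen and pyruvate control 4 fell and 1 rose (2 and 1 without the 4 arrays). G6pc, glucose-6-phosphatase, the last step of glucose release, fell from 6735 and 9229 to 624 and 1008 (-3.22, SE 0.46, adjusted p = 0.00117), and Ppp1r3c, which brings a phosphatase to glycogen, from 1625 and 1783 to 488 and 318 (-1.96, SE 0.34, adjusted p = 0.00418). The kinases of pyruvate dehydrogenase diverged: Pdk4 rose, as given above, and Pdk2 went from 969.6 and 1637 to 389 and 472 (-1.44, SE 0.27, adjusted p = 0.00644). Among 19 glycolysis genes Slc16a1, the lactate carrier, rose by 1.36 and Pfkfb3, an activator of glycolysis, by 1.10, while Pklr, the liver form of pyruvate kinase, fell by 1.09. Eno3, the muscle enolase, rose by 1.43 and belongs to the muscle list as well. Without the 4 arrays none of these 4 genes passed. Ppargc1a, a coactivator of glucose production, was at 0.28 (SE 0.24, adjusted p = 0.492).

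Among called genes, cytochrome P450 and amino acid genes gave more falls than rises, and conjugating enzymes more rises than falls. Over all 29 tested conjugating enzymes, called or not, 11 changes were above 0 and 18 below. Of 33 cytochrome P450 genes 7 fell and 1 rose (1 and 1 without the 4 arrays; 0, 1 and 1 fell on leaving out 1 array), with a median of -0.49. Cyp2b10, a target of CAR, rose from 1914 and 2627 to 16282 and 13968 (2.72, SE 0.30, adjusted p = 0.000253) while Nr1i3, the gene of CAR, fell. Cyp2c23 and Cyp2d22 fell by 1.47 and 1.17 on the log2 scale. Such families have near-identical members whose probe sets may share signal. Nnmt, which methylates nicotinamide, was at 2690.4 and 3393 in normal liver and 11967 and 12279 at 8 h (1.98, SE 0.37, adjusted p = 0.00583), and of 29 conjugating enzymes 4 rose and 1, the thiopurine methyltransferase Tpmt, fell by 0.95 on the log2 scale (3 and 0 without the 4 arrays), with a median of -0.30. Of 35 urea cycle and amino acid genes 7 fell and 1 rose (0 of either without the 4 arrays; 1, 2 and 1 fell on leaving out 1 array), with a median of -0.54. Hal, histidase, went from 5436 and 8583 to 2359 and 2320.4 (-1.52, SE 0.31, adjusted p = 0.00976) and Prodh, proline dehydrogenase, from 3675 and 4772 to 1538 and 1439 (-1.46, SE 0.25, adjusted p = 0.00388), whereas Aass, of lysine breakdown, rose by 1.09. Of 16 zonation genes, whose level differs along the liver lobule, 4 fell (0 without the 4 arrays). Among them were Rhbg, an ammonium channel, by 1.34 (not with the block) and Lect2, a secreted protein, by 1.25 on the log2 scale.

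Several clotting and complement genes fell while acute-phase genes rose. Of 40 tested genes 11 were lower (27.5%, against 5.22% of all genes), with a median of -0.59; 9 fell with the block, 2 without the 4 arrays, and 2, 4 and 3 on leaving out 1 array. Klkb1, plasma kallikrein, was at 3572 and 5171 in normal liver and 701 and 796 at 8 h (-2.44, SE 0.38, adjusted p = 0.00218), and Serpind1, heparin cofactor II, at 8231 and 10473 in normal liver and 3002 and 2723 at 8 h (-1.68, SE 0.32, adjusted p = 0.00657). C2 and the C1 proteases C1s1 and C1ra, which start the classical complement pathway, fell by 1.55, 1.31 and 1.06 on the log2 scale (C1ra not with the block). C8b, of the membrane attack complex, went from 6706 and 7855 to 3088 and 2935 (-1.25, SE 0.23, adjusted p = 0.00517) and was at 6872 and 6379 at 4 h. By limma 0 of 17 plasma carrier genes passed (4 at an unadjusted p under 0.05), with Ttr, transthyretin, at 47311 and 58381 in normal liver and 42616 and 39693 at 8 h. Afp, the fetal plasma carrier, was at 92.3 and 66.5 in normal liver and 104 and 154 at 8 h (0.44, SE 0.35, adjusted p = 0.455).

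Cytoskeleton and matrix genes had 9 of 36 higher (25%, median 0.60), 10 with the block, 5 without the 4 arrays and 5 on leaving out any of the same 3 single arrays. Tubb6, a beta-tubulin, was at 39.3 and 78.7 in normal liver and 804 and 481 at 8 h (2.58, SE 0.35, adjusted p = 0.000968) and Actg1, gamma-actin, at 3089 and 3852 in normal liver and 21426 and 16553 at 8 h (2.43, SE 0.23, adjusted p = 8.68e-05). Timp1, an inhibitor of matrix proteases, went from 59.7 and 51.2 to 353 and 353 (1.87, SE 0.22, adjusted p = 0.000388). Of 16 stellate cell and fibroblast markers 4 rose (2 without the 4 arrays): Timp1, Col4a1, basement membrane collagen, by 1.59 (SE 0.24), Acta2, the actin of activated stellate cells, by 1.07 (SE 0.30, and not called with the block), and Des, desmin, by 1.33. Desmin is on the muscle list too. The 18 of these markers on the array summed to 15500 and 16210 at 8 h against 13230 and 13860 in normal liver. The keratins Krt8 and Krt18, carried by hepatocytes and bile duct cells alike, went from 2824 and 4135 to 11475 and 9009.7 (1.56, SE 0.40, adjusted p = 0.0296, and not called with the block) and from 3748 and 4298 to 11367 and 10389 (1.42, SE 0.30, adjusted p = 0.011). With Cd24a, a surface protein of duct and progenitor cells, at 189 and 132 in normal liver and 372 and 376 at 8 h, they were the 3 of 6 bile duct cell markers that rose (2 without normal liver replicate 1 and 0 without any other single array of the comparison). The 10 on the array summed to 24050 and 20770 against 7477 and 9038, most of it from Krt8 and Krt18.

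Transporters were split, with 7 of 36 higher and 6 lower (3 and 3 without the 4 arrays). Slc41a2, a magnesium carrier, went from 363 and 326 to 2287 and 2181 (2.51, SE 0.21, adjusted p = 3.97e-05), and Slc20a1, a phosphate carrier, from 444 and 583 to 1947 and 1747 (1.75, SE 0.22, adjusted p = 0.000543). Slc29a1, the nucleoside carrier ENT1, fell from 2695 and 3727 to 744 and 489 (-2.29, SE 0.38, adjusted p = 0.00302), and Slc26a1, a sulfate exchanger, from 1013 and 1302 to 271 and 385 (-1.66, SE 0.24, adjusted p = 0.0012).

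**Figure D4:**
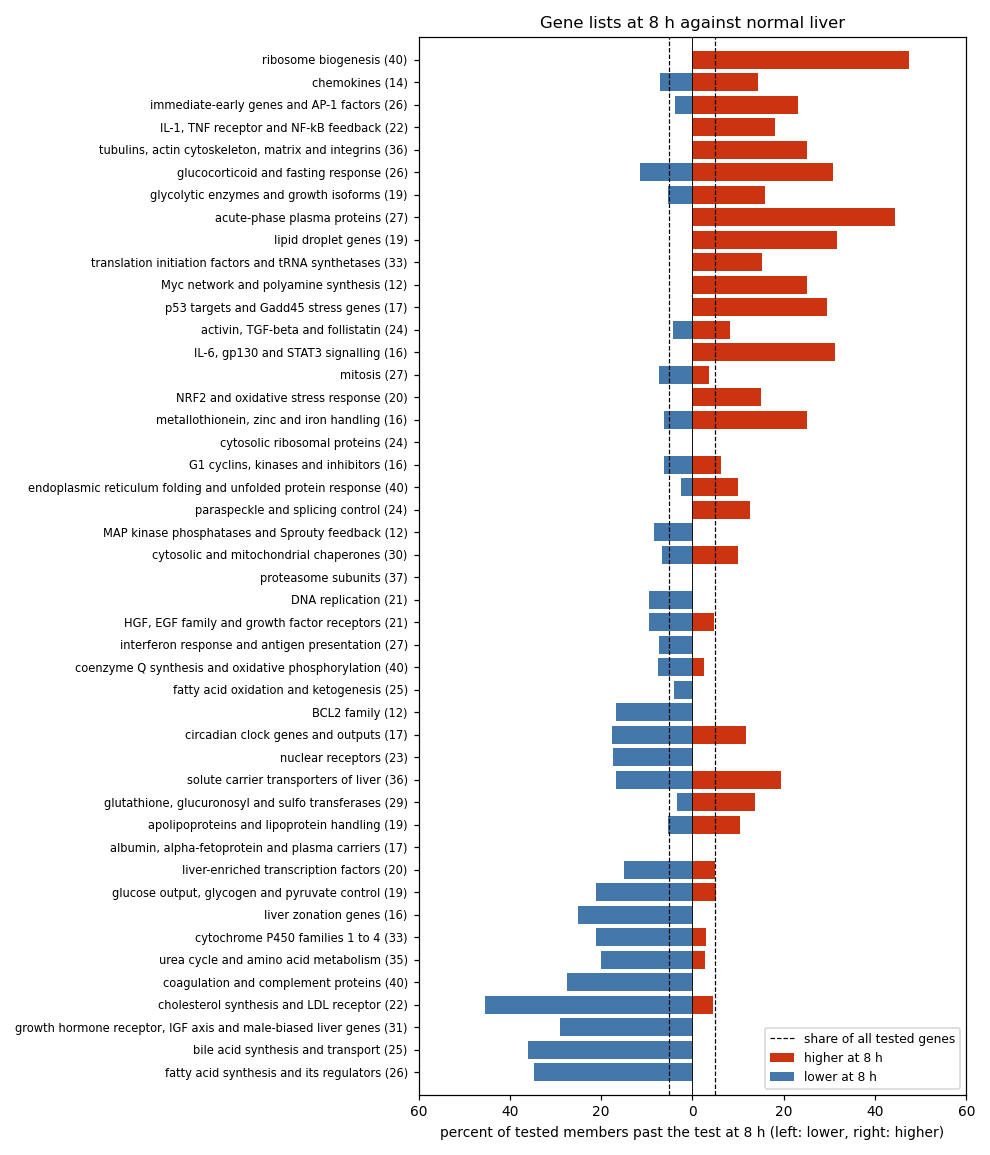
Percent of the tested members of each gene list (number in brackets) that were higher (right) or lower (left) at 8 h than in normal liver, ordered by the median change; dashed lines mark the shares over all tested genes, 5.0% and 5.22%. Ribosome biogenesis reaches 47.5% higher and acute-phase proteins 44.4%, and cholesterol synthesis 45.5% lower.

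Against the times around it, 8 h differed from 4 h in 193 probe sets (1.42%, with 109 higher, 0.803%, and 84 lower, 0.619%) and from 12 h in 65 (0.479%, with 63 higher, 0.464%, and 2 lower, 0.0147%). By genes the shares were 0.875% higher and 0.686% lower than at 4 h, and 0.473% higher and 0.0118% lower than at 12 h. These comparisons share the 8 h arrays with the one against normal liver, so their members are given side by side only. Against 4 h, 14 and 7 probe sets passed without replicate 1 and 2 at 4 h (13 and 7 of them shared with the 193), and 11 without either array at 8 h (10 shared without replicate 1 and 11 without replicate 2). Against 12 h, 20 and 18 passed without replicate 1 and 2 at 8 h (19 and 18 shared with the 65), 35 without replicate 2 at 12 h (28 shared) and 361 without replicate 1 at 12 h (62 shared). The 12 h arrays had the lowest correlation of the 7 groups, 0.910. Of the 63 probe sets higher than at 12 h, 41 belong to the pancreas and muscle lists, and without these lists 24 probe sets differed.

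The genes that differed from 4 h had different courses. Cidec was at 209 and 195 at 4 h and 2393 and 2125 at 8 h, a difference of 3.16 (SE 0.36, adjusted p = 0.00226). Inhbe rose from 69 and 181 to 1535 and 1461 (3.17, SE 0.50, adjusted p = 0.0125), with 1188 and 283 at 12 h. Syt12, a synaptotagmin, and G0s2, an inhibitor of the lipase ATGL, were higher than at 4 h by 2.38 and 2.09. Neat1, the RNA of nuclear paraspeckles, was at 1106 and 2040.4 in normal liver, 36.8 and 99.3 at 4 h and 1092 and 1131 at 8 h. Its 8 h level did not pass the test against normal liver (-0.42, SE 0.54, adjusted p = 0.656) and was higher than at 4 h by 3.27 (SE 0.54, adjusted p = 0.0143). Maff, a small bZIP factor, was at 23.9 and 13.2 in normal liver, 895 and 960.4 at 4 h, 27.5 and 28.9 at 8 h and 41.8 and 1049 at 12 h, and the 8 h arrays were lower than those at 4 h (-3.54, SE 0.74, adjusted p = 0.0395). Osgin1, an oxidative stress growth inhibitor, was at 3523 and 4222 at 4 h and 471 and 439 at 8 h, and again split at 12 h with 539 and 3767.

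Other falls from 4 h to 8 h were in metabolic genes. Hsd3b5 went from 2027 and 1761 at 4 h to 15.2 and 10.9 at 8 h, Keg1 from 4174 and 3914 to 413 and 419, and Igfals from 1392 and 1154 to 240.4 and 184. Nr0b2 was at 2172 and 2059 at 4 h, no lower than in normal liver, and at 472 and 313 at 8 h. Mvk was at 519 and 565 at 4 h and 53.2 and 48.6 at 8 h, and 5 of 22 cholesterol genes were lower at 8 h than at 4 h, against 0.686% of all genes. In the growth hormone and IGF list 5 of 31 were lower than at 4 h. Cyp7a1, Mid1ip1 and Angptl8 were below both normal liver arrays at 4 h already. At that time Cyp7a1 was at 183 and 346, Mid1ip1 at 531 and 457 and Angptl8 at 231 and 238. Hsd3b5 and Keg1 were below both at 4 h as well. Normal liver held 3053 and 4494 for Hsd3b5 and 6975 and 6039 for Keg1.

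Higher at 8 h than at 12 h were mainly transcripts that moved with the acinar list: 24 of 30 acinar genes (against 0.473% of all genes), Reg3b, Reg3a, Reg3d, Nupr1 and 2210010C04Rik. Krt4, a keratin of stratified epithelium, was at 137 and 252 at 4 h, 1349 and 638 at 8 h and 43.7 and 46.5 at 12 h, with 23.1 and 28.7 at 36 h, and Serpini2, a serpin of pancreas, at 505 and 572 at 8 h and 28.5 and 86 at 12 h, with 52.7 and 40.7 at 36 h. These 2 were not higher in the acinar-bearing replicate at 36 h by more than 1.24-fold. Gga1, an adaptor of vesicle transport, was at 303 and 278 in normal liver, 1056 and 493 at 8 h and 56.1 and 41.1 at 12 h, higher by 2.90 (SE 0.34, adjusted p = 0.00133). Saa4, a constitutive serum amyloid, and Cxcl9, an interferon-induced chemokine, were higher than at 12 h by 1.60 and 1.28, and the 2 lower probe sets were Nfx1 and Tmem189, at -1.49 and -1.34; these 4 were chosen after their values were seen.

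**Figure D5:**
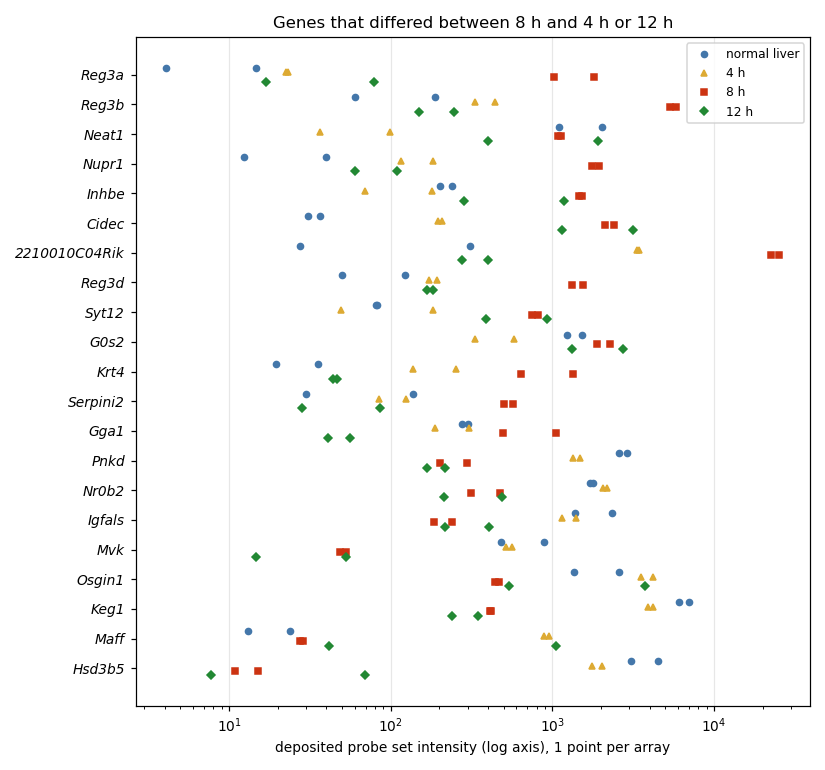
Deposited intensity (log axis) of the named genes that differed between 8 h and 4 h or 12 h, with 2 arrays each of normal liver (circles), 4 h (triangles), 8 h (squares) and 12 h (diamonds), ordered by the difference from 4 h. Reg3a at 8 h lies at 1802 and 1020, above all 6 other arrays shown, and Maff at 12 h splits into 41.8 and 1049.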

How the data were processed

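The authors deposited 1 table of 22690 probe sets by 14 arrays on a linear intensity scale, in which each array's mean, trimmed by 2% at either end, lies between 500.0 and 500.3. No source used here names the software behind these values. Per the series' design text the submitters worked in GeneSpring and looked for changes of 2-fold. Platform annotation named 1 gene for 20380 probe sets, several for 691 and none for 1555, and 64 control probe sets were left out. Here log2(intensity + 56.6, the 25th percentile of all values) was fitted with limma 3.58.1 in R 4.3.3 as 7 groups over 14 arrays, which leaves 7 residual degrees of freedom, for probe sets whose mean reached the 40th percentile of all probe sets (128.8). P-values were adjusted by the Benjamini-Hochberg method over 13576 probe sets. The background of an array is the 95th percentile over 27 control probe sets for bacterial transcripts. A list counts the brightest tested probe set of each gene, and probe sets of near-identical genes can share signal. The number of arrays limits the precision. On simulated data of the contrast with normal liver (13576 probe sets) the fit found 77% of changes of 2 on the log2 scale and 12% of changes of 1. The simulation changed far fewer probe sets than passed in the real data. It used normally distributed noise and no added constant, so these shares need not hold for the real data. 

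Genes and gene lists were chosen with earlier results of these data known. Named were the 12 largest rises and falls outside the pancreas and muscle lists, up to 6 called genes per list (8 for acinar and muscle), the 2 brightest genes of a list without calls, the 8 largest differences from 4 h and from 12 h in each direction, 12 landmark genes and probe sets that disagreed. The largest changes and differences were taken only from called genes whose arrays did not overlap between the compared groups. The brighter group also had to reach a mean of 402.8, the median over tested probe sets. Apcs, Saa3, Lrg1, Ghr, Stat5b, Hmgcs1, Scap, Insig2, Fasn, Scd1, Abcb11, Hspa5 and Hsp90b1 are outside this rule and were chosen after their values were seen. Promoters came from RefSeq, assembly GRCm38.p6, and motifs were searched on both strands. Alternatives covered normalization, the added constant, the filter, array weights, blocks and single arrays.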

Additional observations from a re-analysis of the deposited data

Results flagged for a closer look

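The level at 8 h stood apart from that at a neighbouring time, by limma with an adjusted p under 0.05, in the following genes, given as differences on the log2 scale. Above 4 h were Reg3a (4.15), Neat1 (3.27), Nupr1 (3.23), Inhbe (3.17), Cidec (3.16), Reg3d (2.64), Syt12 (2.38) and G0s2 (2.09). Below 4 h were Hsd3b5 (-4.80), Maff (-3.54), Keg1 (-3.12), Osgin1 (-2.94), Mvk (-2.48), Igfals (-2.31), Nr0b2 (-2.30) and Pnkd (-2.28). Above 12 h were 2210010C04Rik (5.95), Reg3b (4.48), Reg3a (3.83), Nupr1 (3.78), Krt4 (3.28), Gga1 (2.90), Reg3d (2.69) and Serpini2 (2.43). Reg3b, Reg3a, Reg3d, Nupr1 and 2210010C04Rik were also 4.05 to 33.0 times higher in replicate 2 than in replicate 1 at 36 h, the replicate with acinar transcripts, and the part of pancreas RNA in these differences was not tested.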

How the results depend on the processing

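Against normal liver, 1302 probe sets passed. Alternatives were quantile normalization, other added constants, other filters, an intensity trend, array weights and 1 probe set per gene. Others were the block for low 5′ signal and a fit on only the normal liver and 8 h arrays. These gave 915 to 1600. Without the 4 arrays of low 5′ signal 362 passed, a 2-fold rule without a test gave 2145, and leaving out 1 array gave 453 to 1670. Against 4 h (193), a constant 4 times larger gave 296, array weights 1160, only the arrays compared 525, a fit without the 4 arrays 78, and leaving out 1 array 7 to 14. Against 12 h (65), a constant 4 times smaller gave 30, array weights 28, leaving out the pancreas and muscle lists 24 and leaving out 1 array 18 to 361. Fits with fewer arrays have fewer degrees of freedom; the cause of the other shifts was not tested. The filter at the 60th percentile, the intensity trend, 1 probe set per gene and, against 4 h and 12 h, the fits without the lists were chosen after seeing the data. No named call changed direction. Deviations of same-numbered arrays correlated at -0.167 between 8 h and normal liver. Between 8 h and 4 h the value was 0.0046, and between 8 h and 12 h it was 0.233. Among 8, 12, 36 and 72 h, whose replicate 2 had the low 5′ signal, they correlated at 0.144 to 0.307. The highest value among all pairs of groups was 0.527, between normal liver and 48 h. No label says that a number marks a shared animal or day. With the replicate number as a block 1381, 203 and 57 probe sets passed against normal liver, 4 h and 12 h. With 2 arrays a group, many changes under 2-fold may have been missed, and values near background have no reliable order.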

Other observations

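Other probe sets of named genes disagreed in 64 of 128 pairs, in the call or the direction. For Sfpq, a splicing and paraspeckle protein that rose by 1.21, other probe sets were at -0.58 and -0.02. For Hnrnpab, an RNA-binding protein that rose by 0.90, another was at 0.03. A pair of probe sets to which the platform annotation gives no single gene name here were among the largest rises. The first went from 28.2 and 34.2 in normal liver to 30503 and 24237 at 8 h, at least 483.5-fold higher, and the other from 20.8 and 11.7 to 6480.1 and 7104, at least 120.7-fold higher. Both were chosen after their values were seen, and both were higher in the 36 h array with acinar transcripts, by 1380 and 8.98 times.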
